A study of Homo sapiens with 6 samples.

Results

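The genes described here are 38 nucleolar ribosome biogenesis factors, of 19040 genes measured in AN3-CA, an endometrial cancer cell line of human origin. They were taken by gene symbol: 1 probe set stood for each gene, the one with the highest mean log2 intensity over the 6 arrays, and all 38 symbols were found. The cells were cultured for 24 h and then held for 18 h in serum-free medium in each of 3 groups of 2 arrays. Control cells (C0) received DMSO without growth factor. A second group (C1) received 10 ng/mL acidic fibroblast growth factor (aFGF, a ligand of the FGF receptors) with DMSO. The last group (C2) received the same dose of aFGF with 300 nM AZD4547, which inhibits the kinase activity of FGF receptors, and is called AZD4547 below. All groups thus shared serum withdrawal, and no group had AZD4547 without aFGF. The vehicle is given as 0.5% DMSO, and the labels do not state how much the AZD4547 dishes received. The labels call the samples biological replicates from 6 dishes of 1 cell line, so p-values rest on the spread between dishes. Part of that spread was borrowed for each gene from genes of similar intensity. The values are log2 of the deposited RMA intensity, which has no detection call.

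Ribosomes are built largely in the nucleolus. RNA polymerase I transcribes the ribosomal RNA precursor there, small nucleolar ribonucleoproteins (snoRNPs) direct its methylation and pseudouridylation, and large assembly complexes fold and cut it while ribosomal proteins join, giving precursors of the small (40S) and large (60S) subunits. Growth factor signalling and the transcription factor MYC are known regulators of many of these genes, and MYC with its partner MAX binds the E-box sequence CACGTG.

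The promoters of the members are shown first because this E-box was found in many of them. RefSeq promoter windows (GRCh38.p14) of 300 bases, 250 before to 50 after a transcription start, were found for 32 of the 38 members. The search for CACGTG, which is its own reverse complement, found it in the windows of 14 of the 32 members, 43.75%, against 10.92% of the array's genes with a window and 13.0% of those above the array median. Counted over windows, the members held it in 14 of 39 (35.9%), against 7.26% of all 35116 RefSeq windows. The share of windows was 8.26% for the array's genes and 9.58% for those above the array median. In 11 of the 14 the motif began 4 to 36 bases after the start, and in LYAR, UTP20 and RRP9 it began before it. The 6 members below were chosen for having the largest fall with AZD4547 among those with the motif. NOP16, WDR74 and POLR1B fell further, and their windows did not hold it. Each line gives 30 bases, 5′ to 3′ on the gene's strand, with the E-box in capitals.
WDR43: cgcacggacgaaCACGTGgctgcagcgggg
PNO1: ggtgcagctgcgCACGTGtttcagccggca
LYAR: cggcggcgagtcCACGTGctccccgcggcc
UTP20: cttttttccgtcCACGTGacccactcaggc
RRP9: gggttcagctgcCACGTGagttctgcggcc
NOC3L: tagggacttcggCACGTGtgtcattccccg
These stretches lie at chr2:28894658-28894687 (plus strand) for WDR43, chr2:68157885-68157914 (plus) for PNO1, chr4:4290068-4290097 (minus) for LYAR, chr12:101280083-101280112 (plus) for UTP20, chr3:51941892-51941921 (minus) for RRP9 and chr10:94362903-94362932 (minus) for NOC3L. LYAR's E-box lay farthest upstream of the start, and the 250 bases before the start (chr4:4290022-4290271, minus strand) are given to show its surroundings.
LYAR: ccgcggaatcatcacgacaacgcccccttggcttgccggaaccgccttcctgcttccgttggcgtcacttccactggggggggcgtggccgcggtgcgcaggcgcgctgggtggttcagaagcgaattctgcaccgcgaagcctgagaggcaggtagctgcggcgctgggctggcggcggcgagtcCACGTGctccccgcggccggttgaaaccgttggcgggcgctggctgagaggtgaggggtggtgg
A match is a description of these letters and not a measured binding site.

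**Figure D1:**
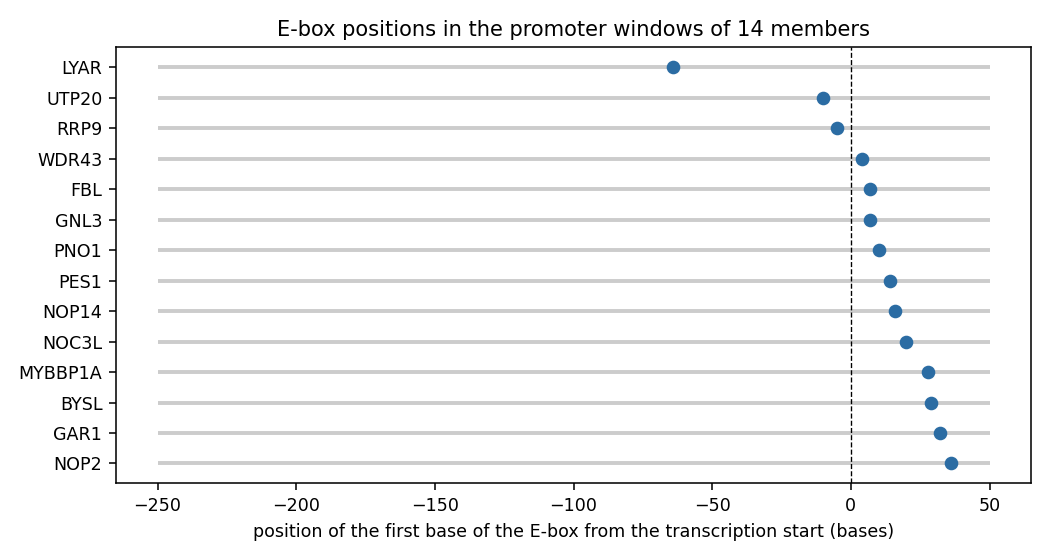
Position of the first base of the E-box, in bases from the annotated transcription start, for the 14 members with a match; grey lines span the 300-base window and the dashed line marks the start. Most points, 11 of 14, lie after the start, and LYAR's lies farthest before it.

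Pearson's r over all probe sets was 0.9966 between the DMSO arrays and 0.9973 in both other groups, and array medians ran from 2.843 to 2.893. Of the epithelial markers only KRT18 (mean 4.27) exceeded the median probe set level of 2.87, and KRT8, KRT19, EPCAM and CDH1 did not. Of 8 endometrial and Müllerian markers, 4 did (EMX2, HOXA10, HOXA11 and ESR1), while PAX8, SOX17, PGR and FOXA2 did not. No leukocyte marker of 5 did, 1 of 4 endothelial markers (KDR) did, and 1 of 5 fibroblast markers (COL1A2, at a mean of 9.70) did. The summed level of the epithelial markers was 4.81 to 4.83 on the DMSO arrays, 5.07 to 5.13 with aFGF and 4.70 to 4.73 with AZD4547, and the endometrial sum was 7.70 to 7.80, 7.43 to 7.54 and 7.74 to 7.93. KRT18 carried the epithelial pattern, with 0.44 from DMSO to aFGF and -0.53 from aFGF to AZD4547, while KRT8 (-0.04), KRT19 (-0.17), EPCAM (-0.01) and CDH1 (0.12) were not called with aFGF. The endothelial sum was 4.15 to 4.21, 4.30 to 4.45 and 4.17 to 4.37, and the leukocyte sum 3.75 to 3.84, 3.62 to 3.86 and 3.60 to 3.74. The fibroblast sum was 9.49 to 9.68, 9.77 to 9.78 and 9.79 to 9.83. The markers' part in the results was not tested. In bulk RNA, fewer cells of a type and less RNA per cell cannot be told apart.

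Across the 38 genes, aFGF raised most transcripts, and with AZD4547 all were lower than with aFGF alone and most were lower than with DMSO. With aFGF over DMSO, 29 members rose and none fell (limma, adjusted p under 0.05 over all 19040 genes), where 5.92% of all genes were called higher and 9.72% lower. The median difference of the members was 0.34 on the log2 scale (1.26-fold) against -0.008 over all genes, and 37 of 38 were above 0. From aFGF to AZD4547 all 38 fell, with a median of -0.72 (1.65-fold lower) against -0.02, where 10.1% of all genes were called lower and 15.6% higher. From DMSO to AZD4547 29 fell and none rose, with a median of -0.38 (1.3-fold lower) against -0.01, where 2.41% of all genes were called lower and 2.28% higher. All members lay above the array median, and of the 10467 genes there, 10.2% were called higher with aFGF, 17.0% lower from aFGF to AZD4547 and 4.28% lower from DMSO to AZD4547. The 3 comparisons share arrays, so their values are given side by side.

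The number of calls depended on the arrays in the fit and on the variance prior, for the members and over all genes. All groups share 1 estimate of spread, so leaving out an array also changes comparisons that do not use it. A smaller count is therefore not specific to the members or to the array left out. The counts over all genes are given in the section on processing. Leaving out aFGF replicate 1 or 2 left 18 or 15 members called higher with aFGF, and 18 were called without the intensity trend in the prior variance. The 29 calls from DMSO to AZD4547 fell to 6 and 1 without AZD4547 replicate 1 or 2, to 18 when either aFGF array was left out, to 18 with only the arrays of both groups compared, and to 0 without that trend. From aFGF to AZD4547 at least 35 members were called with any 1 array left out.

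On 34 members the arrays had 1 order: both AZD4547 arrays lay below both DMSO arrays, which lay below both aFGF arrays. That order held for 6.58% of all genes and for 10.3% of those above the array median. The exceptions were NOP56, NOC2L, GNL3 and NPM1. The largest gap between the replicates of a group was 0.26 among the members, and the standard error of a difference, equal in the 3 comparisons of a gene, was 0.044 to 0.088. Values after ± are this standard error, which uses the same borrowed spread.

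**Figure D2:**
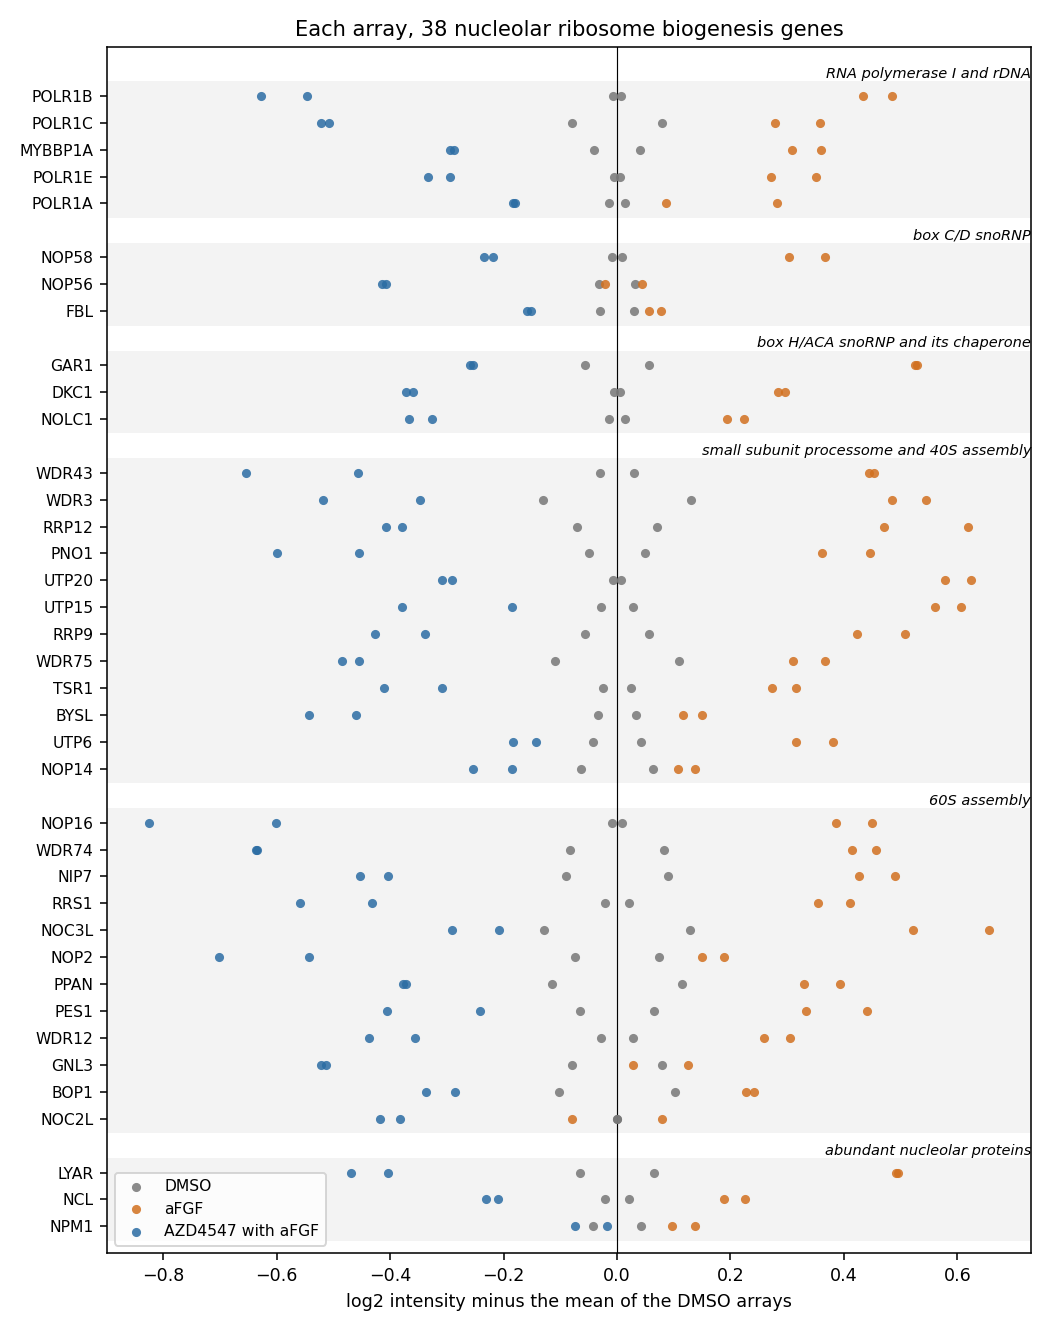
Each point is 1 array, as log2 intensity minus the mean of the DMSO arrays, for the 38 members in 6 role groups. The AZD4547 points lie left of the aFGF points for every member, and the DMSO points lie between them in 34.

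RNA polymerase I and its cofactor made the first role group, in which 4 of 5 members rose with aFGF, 5 fell from aFGF to AZD4547 and 3 fell below DMSO. POLR1B, the second-largest subunit of the enzyme, measured 6.14 and 6.12 with DMSO, 6.62 and 6.56 with aFGF, and 5.58 and 5.50 with AZD4547. It rose by 0.46 ± 0.06 with aFGF (adjusted p = 0.00055) and fell by 1.05 from aFGF to AZD4547 (adjusted p = 6.0e-07), and it fell by 0.59 from DMSO to AZD4547 (adjusted p = 0.00096). The level with AZD4547 was thus 2.06-fold below that with aFGF, the largest difference of the group in both steps, and the groups did not overlap. POLR1C, a subunit shared with RNA polymerase III, measured 5.95 and 6.11 with DMSO, 6.39 and 6.31 with aFGF, and 5.51 and 5.52 with AZD4547. It rose by 0.32 ± 0.07 with aFGF (adjusted p = 0.011) and fell by 0.83 from aFGF to AZD4547 (adjusted p = 7.7e-06), and it fell by 0.52 from DMSO to AZD4547 (adjusted p = 0.0029). POLR1E, a subunit particular to RNA polymerase I, stood at 6.25 and 6.26 with DMSO, 6.53 and 6.61 with aFGF, and 5.96 and 5.92 with AZD4547. It rose by 0.31 ± 0.06 with aFGF (adjusted p = 0.0051) and fell by 0.62 from aFGF to AZD4547 (adjusted p = 2.0e-05), and it fell by 0.31 from DMSO to AZD4547 (adjusted p = 0.017). For POLR1C and POLR1E, too, the AZD4547 arrays were lowest, the aFGF arrays highest and the groups apart. MYBBP1A, a nucleolar MYB-binding protein with a role in rRNA synthesis and processing, rose by 0.33 ± 0.07 with aFGF (adjusted p = 0.01) and fell by 0.63 from aFGF to AZD4547 (adjusted p = 8.1e-05), and the difference of -0.29 from DMSO to AZD4547 was not called (adjusted p = 0.0505). POLR1A, the largest catalytic subunit, differed by 0.18 ± 0.08 between aFGF and DMSO, which was not called (adjusted p = 0.14), and it fell by 0.37 from aFGF to AZD4547 (adjusted p = 0.0035), the smallest fall of the 5.

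The core proteins of the box C/D snoRNPs, which guide 2′-O-methylation of rRNA, had the smallest median difference with aFGF of the role groups (0.07), with 1 of 3 called. NOP58, a scaffold protein of these particles, measured 8.43 and 8.41 with DMSO, 8.79 and 8.72 with aFGF, and 8.19 and 8.20 with AZD4547. It rose by 0.33 ± 0.05 with aFGF (adjusted p = 0.0008) and fell by 0.56 from aFGF to AZD4547 (adjusted p = 8.3e-06), and it fell by 0.23 from DMSO to AZD4547 (adjusted p = 0.025). Its 3 groups did not overlap. NOP56, the partner of NOP58 in the core, measured 8.55 and 8.48 with DMSO, 8.56 and 8.49 with aFGF, and 8.10 and 8.11 with AZD4547. Its DMSO and aFGF arrays overlapped, and both AZD4547 arrays lay below them. It differed by 0.01 ± 0.05 between aFGF and DMSO, which was not called (adjusted p = 0.93), and it fell by 0.42 from aFGF to AZD4547 (adjusted p = 8.8e-05) and fell by 0.41 from DMSO to AZD4547 (adjusted p = 0.0018). Fibrillarin (FBL), the methyltransferase of the particle, differed by 0.07 ± 0.05 between aFGF and DMSO, which was not called (adjusted p = 0.42), and it fell by 0.22 from aFGF to AZD4547 (adjusted p = 0.0033), 1.17-fold; the difference of -0.16 from DMSO to AZD4547 was not called (adjusted p = 0.081). Of the box H/ACA proteins, which guide pseudouridylation, and their chaperone, all 3 were called in each comparison. GAR1, a core protein, measured 7.08 and 7.20 with DMSO, 7.67 and 7.67 with aFGF, and 6.89 and 6.88 with AZD4547. It rose by 0.53 ± 0.06 with aFGF (adjusted p = 0.00011) and fell by 0.78 from aFGF to AZD4547 (adjusted p = 2.3e-06), and it fell by 0.26 from DMSO to AZD4547 (adjusted p = 0.029). It had the largest rise of these 3, 1.44-fold, and the largest fall from aFGF. In a fit over all probe sets with 1 symbol, the same GAR1 probe set was not called from DMSO to AZD4547 (limma adjusted p = 0.0504). Dyskerin (DKC1), the pseudouridine synthase, measured 8.32 and 8.33 with DMSO, 8.61 and 8.62 with aFGF, and 7.97 and 7.96 with AZD4547. It rose by 0.29 ± 0.05 with aFGF (adjusted p = 0.0016) and fell by 0.66 from aFGF to AZD4547 (adjusted p = 2.1e-06), and it fell by 0.37 from DMSO to AZD4547 (adjusted p = 0.0021). NOLC1, a chaperone that binds snoRNPs, measured 8.999 and 8.97 with DMSO, 9.21 and 9.18 with aFGF, and 8.62 and 8.66 with AZD4547. It rose by 0.21 ± 0.05 with aFGF (adjusted p = 0.01) and fell by 0.56 from aFGF to AZD4547 (adjusted p = 6.4e-06), and it fell by 0.35 from DMSO to AZD4547 (adjusted p = 0.0024). The groups were apart for all 3 genes, with AZD4547 lowest and aFGF highest.

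The small subunit processome, the large complex that assembles on the rRNA precursor, and later 40S factors made a group of 12. Of these, 10 rose with aFGF (median of all 12, 0.43), 12 fell from aFGF to AZD4547 (median -0.86) and 8 fell below DMSO (median -0.39). WDR43, a WD-repeat protein of the subcomplex that joins the precursor first, measured 6.04 and 5.98 with DMSO, 6.45 and 6.46 with aFGF, and 5.55 and 5.36 with AZD4547. It rose by 0.45 ± 0.08 with aFGF (adjusted p = 0.0019) and fell by 1.00 from aFGF to AZD4547 (adjusted p = 2.6e-06), and it fell by 0.56 from DMSO to AZD4547 (adjusted p = 0.0024). The fall from aFGF, 2.01-fold, was the largest of the 12. UTP20, a large scaffold protein of the processome, measured 4.41 and 4.39 with DMSO, 4.98 and 5.02 with aFGF, and 4.09 and 4.11 with AZD4547. It rose by 0.60 ± 0.08 with aFGF (adjusted p = 0.00045), 1.52-fold and the largest rise of all 38, and fell by 0.90 from aFGF to AZD4547 (adjusted p = 1.0e-05); the difference of -0.30 from DMSO to AZD4547 was not called (adjusted p = 0.06). In both genes the groups were apart, with AZD4547 lowest. WDR3, a processome WD-repeat protein, measured 6.33 and 6.59 with DMSO, 6.94 and 7.003 with aFGF, and 6.11 and 5.94 with AZD4547. It rose by 0.51 ± 0.09 with aFGF (adjusted p = 0.0021) and fell by 0.95 from aFGF to AZD4547 (adjusted p = 1.3e-05), and it fell by 0.43 from DMSO to AZD4547 (adjusted p = 0.019). WDR75, of the same early subcomplex as WDR43, measured 6.67 and 6.45 with DMSO, 6.93 and 6.87 with aFGF, and 6.10 and 6.07 with AZD4547. It rose by 0.34 ± 0.07 with aFGF (adjusted p = 0.0092) and fell by 0.81 from aFGF to AZD4547 (adjusted p = 1.2e-05), and it fell by 0.47 from DMSO to AZD4547 (adjusted p = 0.0056). The DMSO arrays of WDR3 differed by 0.26 and still lay between the other groups. RRP9, which binds the U3 snoRNA, measured 5.06 and 5.17 with DMSO, 5.63 and 5.54 with aFGF, and 4.78 and 4.69 with AZD4547. It rose by 0.47 ± 0.08 with aFGF (adjusted p = 0.002) and fell by 0.85 from aFGF to AZD4547 (adjusted p = 1.3e-05), and it fell by 0.38 from DMSO to AZD4547 (adjusted p = 0.02).

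Among the later 40S factors and the remaining processome proteins, the order of the groups was the same. PNO1, which works with the nuclease NOB1 at the end of the small subunit rRNA, measured 6.68 and 6.58 with DMSO, 6.99 and 7.08 with aFGF, and 6.17 and 6.03 with AZD4547. It rose by 0.40 ± 0.07 with aFGF (adjusted p = 0.0022) and fell by 0.93 from aFGF to AZD4547 (adjusted p = 2.6e-06), and it fell by 0.53 from DMSO to AZD4547 (adjusted p = 0.0022). RRP12, a factor in pre-40S maturation and export, measured 5.56 and 5.70 with DMSO, 6.10 and 6.25 with aFGF, and 5.22 and 5.25 with AZD4547. It rose by 0.54 ± 0.08 with aFGF (adjusted p = 0.00066) and fell by 0.94 from aFGF to AZD4547 (adjusted p = 5.6e-06), and it fell by 0.39 from DMSO to AZD4547 (adjusted p = 0.017). TSR1, a GTPase-like factor on pre-40S particles, measured 7.96 and 8.01 with DMSO, 8.26 and 8.30 with aFGF, and 7.57 and 7.68 with AZD4547. It rose by 0.29 ± 0.05 with aFGF (adjusted p = 0.0036) and fell by 0.65 from aFGF to AZD4547 (adjusted p = 6.3e-06), and it fell by 0.36 from DMSO to AZD4547 (adjusted p = 0.005). In these 3, no group overlapped another. BYSL (bystin), a pre-40S assembly factor, measured 6.37 and 6.44 with DMSO, 6.52 and 6.56 with aFGF, and 5.86 and 5.95 with AZD4547. It differed by 0.13 ± 0.06 between aFGF and DMSO, which was not called (adjusted p = 0.21), though both aFGF arrays lay above both DMSO arrays. It fell by 0.63 from aFGF to AZD4547 (adjusted p = 2.2e-05) and fell by 0.50 from DMSO to AZD4547 (adjusted p = 0.002). UTP15, of the early subcomplex, rose by 0.58 ± 0.07 with aFGF (adjusted p = 0.00027) and fell by 0.86 from aFGF to AZD4547 (adjusted p = 6.3e-06); the difference of -0.28 from DMSO to AZD4547 was not called (adjusted p = 0.052). UTP6, a processome protein, rose by 0.35 ± 0.06 with aFGF (adjusted p = 0.0016) and fell by 0.51 from aFGF to AZD4547 (adjusted p = 4.7e-05); the difference of -0.16 from DMSO to AZD4547 was not called (adjusted p = 0.14). NOP14, also of the processome, differed by 0.12 ± 0.08 between aFGF and DMSO, which was not called (adjusted p = 0.37), and it fell by 0.34 from aFGF to AZD4547 (adjusted p = 0.0057), the smallest fall of the 12.

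The 60S assembly factors were 12 genes, of which 9 rose with aFGF, all 12 fell from aFGF to AZD4547 and 11 fell below DMSO. NOP16, a nucleolar 60S factor, measured 8.35 and 8.34 with DMSO, 8.73 and 8.80 with aFGF, and 7.74 and 7.52 with AZD4547. It rose by 0.42 ± 0.07 with aFGF (adjusted p = 0.0016) and fell by 1.13 from aFGF to AZD4547 (adjusted p = 5.7e-07), and it fell by 0.71 from DMSO to AZD4547 (adjusted p = 0.00041). These falls, 2.19-fold and 1.64-fold, were the largest of the 38 in both comparisons, and its call below DMSO was the only 1 of 29 kept with each array left out. WDR74, a WD-repeat factor of early 60S assembly, measured 5.88 and 6.05 with DMSO, 6.42 and 6.38 with aFGF, and 5.33 and 5.33 with AZD4547. It rose by 0.44 ± 0.07 with aFGF (adjusted p = 0.0017) and fell by 1.07 from aFGF to AZD4547 (adjusted p = 1.2e-06), and it fell by 0.64 from DMSO to AZD4547 (adjusted p = 0.0011). NIP7, required for 60S assembly and rRNA processing, measured 6.51 and 6.33 with DMSO, 6.91 and 6.84 with aFGF, and 6.01 and 5.97 with AZD4547. It rose by 0.46 ± 0.07 with aFGF (adjusted p = 0.0011) and fell by 0.89 from aFGF to AZD4547 (adjusted p = 4.3e-06), and it fell by 0.43 from DMSO to AZD4547 (adjusted p = 0.0073). Neither gene had overlapping groups. RRS1, which brings the 5S RNA particle into pre-60S, measured 7.24 and 7.29 with DMSO, 7.62 and 7.67 with aFGF, and 6.83 and 6.71 with AZD4547. It rose by 0.38 ± 0.06 with aFGF (adjusted p = 0.0013) and fell by 0.88 from aFGF to AZD4547 (adjusted p = 1.4e-06), and it fell by 0.49 from DMSO to AZD4547 (adjusted p = 0.0017). PPAN, a homologue of yeast SSF1, measured 5.53 and 5.76 with DMSO, 6.04 and 5.97 with aFGF, and 5.27 and 5.27 with AZD4547. It rose by 0.36 ± 0.08 with aFGF (adjusted p = 0.011) and fell by 0.74 from aFGF to AZD4547 (adjusted p = 4.9e-05), and it fell by 0.37 from DMSO to AZD4547 (adjusted p = 0.026). Both followed the same order of groups.

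PES1, BOP1 and WDR12 form 1 complex, PeBoW, needed for processing of the large subunit rRNA, and all 3 were called in every comparison. PES1 measured 6.95 and 7.08 with DMSO, 7.46 and 7.35 with aFGF, and 6.61 and 6.78 with AZD4547. It rose by 0.39 ± 0.07 with aFGF (adjusted p = 0.0037) and fell by 0.71 from aFGF to AZD4547 (adjusted p = 2.7e-05), and it fell by 0.32 from DMSO to AZD4547 (adjusted p = 0.03). BOP1 measured 7.34 and 7.54 with DMSO, 7.68 and 7.67 with aFGF, and 7.10 and 7.15 with AZD4547. It rose by 0.24 ± 0.07 with aFGF (adjusted p = 0.037) and fell by 0.55 from aFGF to AZD4547 (adjusted p = 0.00011), and it fell by 0.31 from DMSO to AZD4547 (adjusted p = 0.026). The groups of PES1 and BOP1 did not overlap. In a fit over all probe sets with 1 symbol, BOP1's only probe set was not called with aFGF (limma adjusted p = 0.0525). WDR12 measured 6.72 and 6.67 with DMSO, 7.001 and 6.96 with aFGF, and 6.34 and 6.26 with AZD4547. It rose by 0.28 ± 0.06 with aFGF (adjusted p = 0.0078) and fell by 0.68 from aFGF to AZD4547 (adjusted p = 9.5e-06), and it fell by 0.40 from DMSO to AZD4547 (adjusted p = 0.005). Its arrays, too, fell into the order AZD4547, DMSO, aFGF.

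NOP2, a methyltransferase of the large subunit rRNA, measured 6.33 and 6.18 with DMSO, 6.44 and 6.40 with aFGF, and 5.71 and 5.55 with AZD4547. It differed by 0.17 ± 0.08 between aFGF and DMSO, which was not called (adjusted p = 0.18), and it fell by 0.79 from aFGF to AZD4547 (adjusted p = 1.7e-05) and fell by 0.62 from DMSO to AZD4547 (adjusted p = 0.0017). Its level was 1.54-fold lower with AZD4547 than with DMSO, and the groups were apart. Nucleostemin (GNL3), a nucleolar GTPase, measured 7.04 and 6.88 with DMSO, 7.08 and 6.98 with aFGF, and 6.44 and 6.43 with AZD4547. It differed by 0.08 ± 0.07 between aFGF and DMSO, which was not called (adjusted p = 0.56), and it fell by 0.59 from aFGF to AZD4547 (adjusted p = 5.5e-05) and fell by 0.52 from DMSO to AZD4547 (adjusted p = 0.0021). Its DMSO and aFGF arrays overlapped, and both AZD4547 arrays lay below all others. NOC2L, a homologue of a yeast 60S export factor, measured 7.44 and 7.44 with DMSO, 7.52 and 7.36 with aFGF, and 7.06 and 7.02 with AZD4547. It differed by -0.001 ± 0.06 between aFGF and DMSO, which was not called (adjusted p = 1.00), and it fell by 0.40 from aFGF to AZD4547 (adjusted p = 0.00052) and fell by 0.40 from DMSO to AZD4547 (adjusted p = 0.0051). The aFGF arrays lay on either side of the DMSO arrays. NOC3L, another of the 60S factors, measured 6.45 and 6.71 with DMSO, 7.10 and 7.23 with aFGF, and 6.37 and 6.29 with AZD4547. It rose by 0.59 ± 0.08 with aFGF (adjusted p = 0.00071), the largest rise among the 60S factors, and fell by 0.84 from aFGF to AZD4547 (adjusted p = 2.4e-05); the difference of -0.25 from DMSO to AZD4547 was not called (adjusted p = 0.13). Its groups did not overlap.

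The last group holds abundant nucleolar proteins. Nucleolin (NCL), which binds rRNA precursors and chromatin, measured 10.26 and 10.21 with DMSO, 10.42 and 10.46 with aFGF, and 10.005 and 10.03 with AZD4547. It rose by 0.21 ± 0.04 with aFGF (adjusted p = 0.0078) and fell by 0.43 from aFGF to AZD4547 (adjusted p = 2.9e-05), and it fell by 0.22 from DMSO to AZD4547 (adjusted p = 0.019). Its groups did not overlap. Nucleophosmin (NPM1), a nucleolar chaperone, measured 11.77 and 11.85 with DMSO, 11.91 and 11.95 with aFGF, and 11.79 and 11.74 with AZD4547. It differed by 0.12 ± 0.05 between aFGF and DMSO, which was not called (adjusted p = 0.13), and it fell by 0.16 from aFGF to AZD4547 (adjusted p = 0.022), 1.12-fold and the smallest fall of the 38; the difference of -0.05 from DMSO to AZD4547 was not called (adjusted p = 0.67). The AZD4547 and DMSO arrays of NPM1 overlapped, and both aFGF arrays lay above them. LYAR, a zinc finger protein of the nucleolus, measured 7.05 and 6.92 with DMSO, 7.48 and 7.47 with aFGF, and 6.58 and 6.51 with AZD4547. It rose by 0.49 ± 0.06 with aFGF (adjusted p = 0.00027) and fell by 0.93 from aFGF to AZD4547 (adjusted p = 1.1e-06), and it fell by 0.44 from DMSO to AZD4547 (adjusted p = 0.0032). It had the largest differences of the 3 in each comparison, with groups apart.

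**Figure D3:**
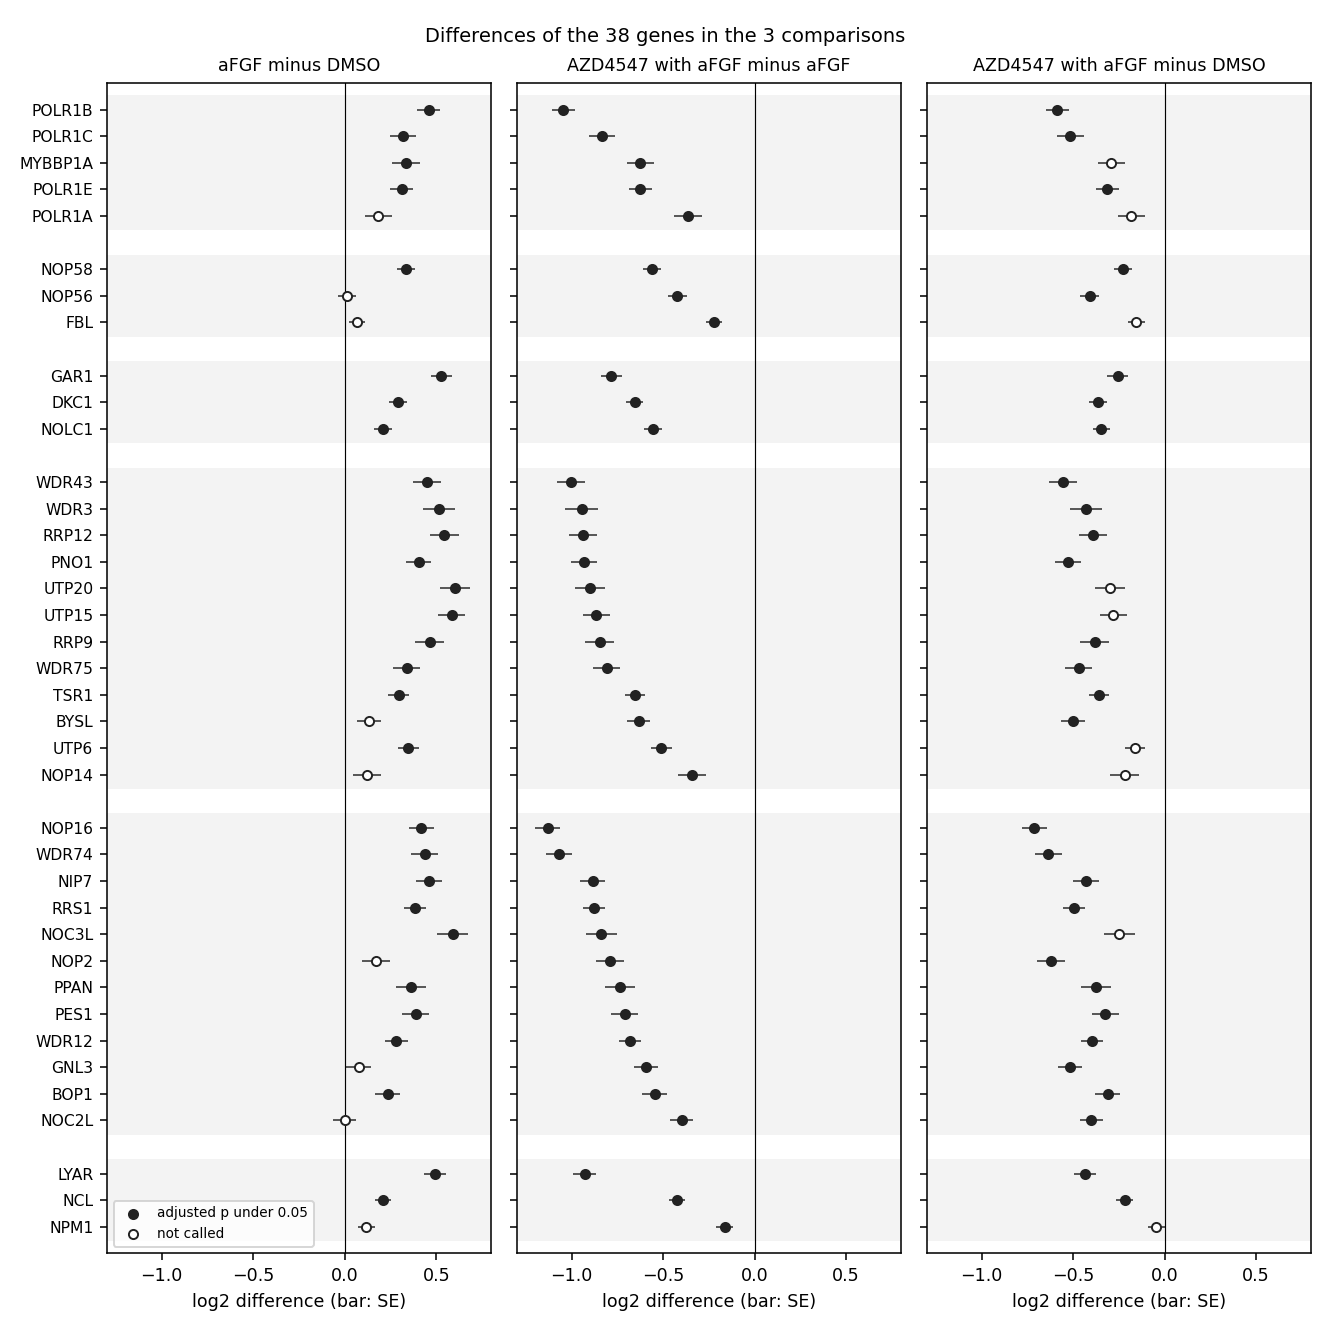
Log2 difference of each member in the 3 comparisons, with bars of 1 standard error; filled points were called by limma at an adjusted p under 0.05. All 38 points are filled from aFGF to AZD4547, and 29 are filled in each of the other panels.

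By the brightest probe set of each gene, the 9 members not called with aFGF were POLR1A, FBL, NOP56, NOP14, BYSL, NOP2, NOC2L, GNL3 and NPM1. Whether a member moved further below DMSO with AZD4547 than above it with aFGF was tested with a contrast added after the data were seen, the sum of the AZD4547 and aFGF means minus 2 DMSO means. Of the 38, 1 was called below 0 (NOP56, -0.40, limma adjusted p = 0.047) and none above 0, where 0.783% of all genes were called lower and 1.02% higher. The largest values were -0.45 for NOP2, -0.44 for GNL3, -0.40 for NOC2L and -0.37 for BYSL, and 0.34 for NOC3L, none of them called. At an unadjusted p under 0.05, 6 members were lower and 3 higher, where 8.15% of all genes were lower and 6.07% higher. In a fit over all probe sets with 1 symbol, those of NOP56 gave -0.40, -0.23, -0.20 and -0.33 in this contrast, none called. The dimmer probe sets of NOP2 gave -0.36 and -0.40. Those of GNL3, NOC2L and NOC3L gave 0.30, 0.01 and 0.007. Those of BYSL, at means of 0.56 and 0.55, gave 0.35 and 0.41. None of these was called. The NOP56 call was lost under 11 of the 16 alternatives tried.

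The other probe sets of the same genes were also read. They target the same genes on the same 6 arrays, so they are not an independent check. Of 94 probe sets for the members, 56 were not the brightest of their gene (31 genes). In a fit over all single-symbol probe sets, 54 of these 56 lay above 0 with aFGF (32 called higher, against 5.12% of all 47340 such probe sets) and 54 below 0 from aFGF to AZD4547 (46 called lower, against 9.01%, median -0.69). From DMSO to AZD4547, 53 lay below 0 and 32 were called lower, against 1.46%. Of the 49 above the array median, all 49 lay below 0 from aFGF to AZD4547 and 45 were called, against 16.1% of probe sets at such levels. GNL3 differed between probe sets: its dimmer one was higher with aFGF by 0.40 (adjusted p = 0.014) and gave -0.10 from DMSO to AZD4547, which was not called. The dimmer NOC2L probe set gave 0.20 with aFGF and -0.19 from DMSO to AZD4547, neither of them called. NOP56's other probe sets gave 0.16, 0.16 and 0.06 with aFGF, none called. From DMSO to AZD4547 they gave -0.39, -0.36 and -0.39, all called lower. The NPM1 probe set without a cross-hybridisation suffix was called higher with aFGF, by 0.23 (limma adjusted p = 0.013), and no other NPM1 probe set was. All 6 NPM1 probe sets lay below 0 from aFGF to AZD4547, and the one without such a suffix gave -0.38 (adjusted p = 0.00024). The remaining probe sets of BYSL, at means of 0.56 and 0.55, gave 0.12 and 0.14 in that comparison and were not called, and with the mean of its 3 probe sets the difference from DMSO to AZD4547 was 0.001. Of the representatives, 8 end in _x_at and 7 in _s_at, suffixes for probes that can match other transcripts.

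**Figure D4:**
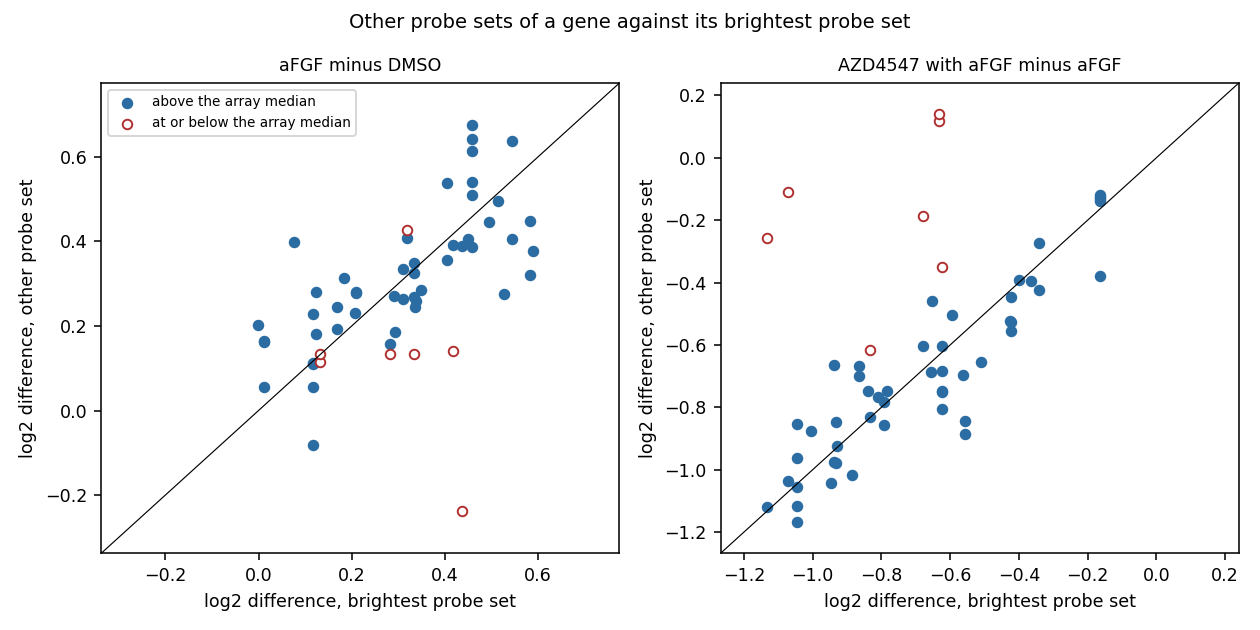
Log2 difference of each of the 56 other probe sets (vertical) against that of the brightest probe set of its gene (horizontal), for aFGF minus DMSO and for AZD4547 with aFGF minus aFGF; the line marks equality. In the second panel the 49 filled points, above the array median, all lie below 0, and the open points above 0 are the 2 dim BYSL probe sets.

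A further 116 genes of the pathway were measured. Of these, 55 rose and 1 fell with aFGF (median 0.22), where 5.92% of all genes were called higher and 9.72% lower. From aFGF to AZD4547, 2 rose and 91 fell (median -0.48), where 15.6% of all genes were called higher and 10.1% lower. From DMSO to AZD4547, 43 fell and none rose (median -0.23), where 2.41% of all genes were called lower and 2.28% higher. The largest rises with aFGF were RRP15 (0.66) and RRP1 (0.64), both of 60S assembly. The largest falls from aFGF to AZD4547 were MAK16 (-1.15) and RRP1 (-1.03), and from DMSO to AZD4547 NIFK (-0.59), which binds the proliferation marker Ki-67, and IMP4 (-0.55), of the U3 particle. NOP53, a 60S factor, went the other way, falling with aFGF (-0.27, limma adjusted p = 0.0033) and rising from aFGF to AZD4547 (0.33, adjusted p = 0.00038). EXOSC8, an exosome subunit, rose by 0.20 in the latter (adjusted p = 0.036). By list, from aFGF to AZD4547, 8 of 12 RNA polymerase I genes, 7 of 10 snoRNP genes, 32 of 39 small subunit genes, 35 of 41 60S genes and 9 of 14 exosome genes fell.

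**Figure D5:**
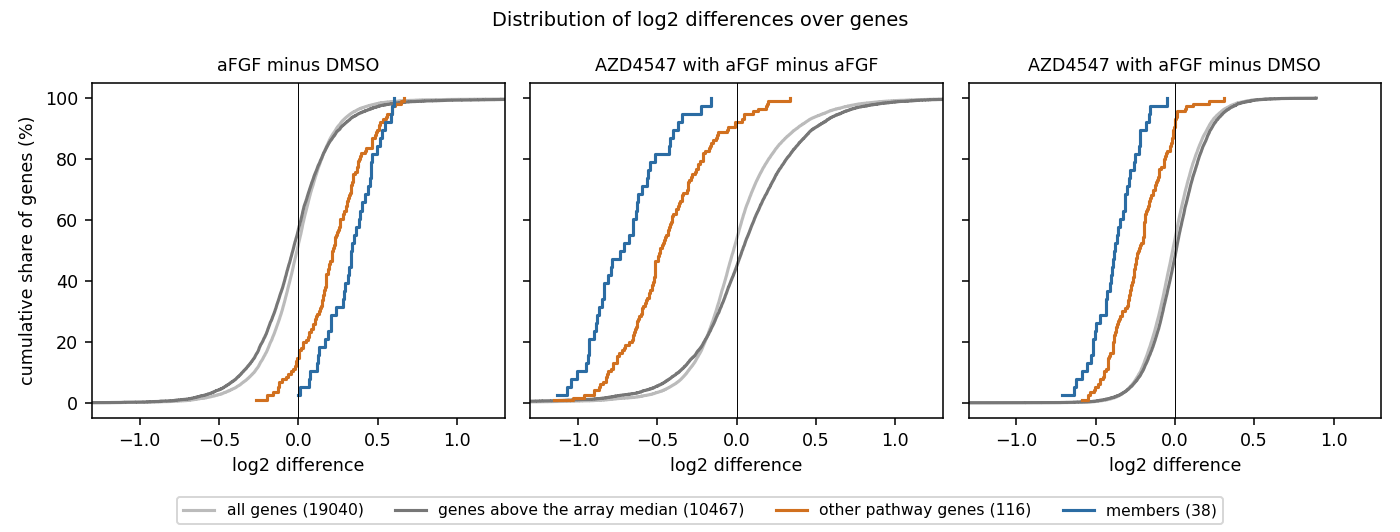
Cumulative share of genes by log2 difference, in the 3 comparisons, for all 19040 genes, the 10467 above the array median, the 116 other pathway genes and the 38 members. At the median the members lie to the right of all genes with aFGF (0.34) and to the left in the AZD4547 comparisons (-0.72 and -0.38), with the other pathway genes between them.

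MYC, known to act on many of these genes, measured 8.20 and 7.93 with DMSO, 8.96 and 9.01 with aFGF, and 6.67 and 6.69 with AZD4547. Its differences were 0.92 ± 0.08 with aFGF, -2.30 from aFGF to AZD4547 and -1.38 from DMSO to AZD4547, and the groups did not overlap. The 14 members with an E-box in the promoter window had medians of 0.40 with aFGF, -0.79 from aFGF to AZD4547 and -0.35 from DMSO to AZD4547. The 18 members with a window and no match had 0.33, -0.71 and -0.40. Both sets spanned overlapping ranges, and whether MYC binds these promoters in AN3-CA cells was not tested.

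The authors' deposited table, which gives ratios over DMSO and p-values per probe set, lists all 38 representatives with a ratio above 1 for aFGF and below 1 for AZD4547. In the authors' deposited table, 23 of the former and 28 of the latter have a p-value under 0.05, against 6.41% and 4.47% of all 49293 probe sets with a ratio in that direction and such a p-value. Those probe sets include dim ones, while all 38 representatives lay above the array median. The ratios are of mean linear intensities, and NOC2L's with aFGF was 1.001, where its log2 difference above was -0.001.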

How the data were processed

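Total RNA was measured on 6 Affymetrix arrays. Per the submitters' processing notes, the values were made with RMA. As deposited, each intensity is linear (0.75 to 6344.2); neither the array type nor the conversion from log2 is stated in the labels. The authors' deposited table also holds a ratio and a p-value per probe set from an unstated test. Of 49293 probe sets, 47340 carried 1 symbol, updated through Entrez identifiers (47089 matched in RefSeq). Intensities were converted to log2 without a pseudocount. Group means were fitted to all 6 arrays for 19040 genes with limma 3.58.1 in R 4.3.3 (eBayes with intensity trend, 3 residual degrees of freedom, two-sided). Calls were made at adjusted p under 0.05 (Benjamini-Hochberg over all genes). The fit was also run on simulated data with independent noise, which hold no effect shared by the genes of an array. No support for the calls is drawn from that run. The number of arrays limits the precision.

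The members, role groups and lists were chosen with earlier results of these data known. Levels per array are given for members called from DMSO to AZD4547, for NCL and NPM1, and for the largest change in each role group. Other pathway genes are named as at most the 2 largest called rises and falls. MYC and the markers are given as values. Alternatives varied the variance prior, dim genes, scaling, normalization, pseudocount, probe sets, arrays in the fit, replicate block, array weights and source table. A contrast for unequal steps above and below DMSO was added after the data were seen.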

Additional observations from a re-analysis of the deposited data

How the results depend on the processing

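From aFGF to AZD4547 the members' calls were kept under every alternative for 33 of 38, all but POLR1A, FBL, NOP14, BYSL and NPM1. With aFGF over DMSO, 11 of 29 calls were kept under every alternative, and from DMSO to AZD4547 none of 29. Without the intensity trend, aFGF over DMSO gave 580 genes higher and 909 lower with 18 members higher, and AZD4547 over DMSO gave 0 genes higher and 10 lower with 0 members lower. With only the arrays of the groups compared, AZD4547 over DMSO gave 96 higher and 121 lower with 18 members lower. BYSL from DMSO to AZD4547 turned from -0.50 to 0.001 with the mean of all its probe sets, which includes 2 dim ones. Leaving out 1 array gave 450 to 1331 genes higher, 684 to 2117 lower and 15 to 30 members higher for aFGF over DMSO. It gave 1830 to 3391 genes higher, 1153 to 2278 lower and 35 to 38 members lower from aFGF to AZD4547. It gave 7 to 772 genes higher, 21 to 784 lower and 1 to 31 members lower from DMSO to AZD4547. The lone array left in a group was assumed to vary like the others, and no member was called in the opposite direction in these 3 comparisons.

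The contrast added after the data were seen gave 38 genes higher, 6 lower and 0 members lower without the trend. Genes lower numbered 256 with dim genes left out, 81 with median centring, 94 with array weights and 234 with the replicate block. Members lower numbered 0 with median centring, quantile normalization, the mean of probe sets, no _x_at probe sets or array weights, and 2 with the replicate block. Leaving out 1 array gave 57 to 530 genes higher, 17 to 637 lower, 0 to 2 members higher and 0 to 3 lower. It could not be fitted to only 2 groups.

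Same-numbered replicates did not deviate together (r of deviations 0.061, 0.102 and -0.073), so the numbers were not taken as pairs. With the replicate block, 29 members were called higher with aFGF, 38 lower from aFGF to AZD4547 and 31 lower from DMSO to AZD4547. The cause of these changes was not tested.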

Other observations

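Among the 116 other pathway genes, 103 had a RefSeq promoter window, and 30 of these (29.13%) held the E-box CACGTG, against 43.75% of the members and 10.92% of the array's genes with a window.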
